A study of Mus musculus with 30 samples.

Results

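The unfolded protein response is the programme by which a cell adjusts the folding capacity of its endoplasmic reticulum (ER), and 10 of its genes were followed here across every library of the series. The members were a listed set, Hspa5, Hsp90b1, Dnajb9, Herpud1, Xbp1, Ern1, Atf6, Atf4, Ddit3 and Trib3, taken by Ensembl ID from a table of 36558 genes, and all 10 were found and passed the filter on low counts in both tissues. They were read in 29 RNA-seq libraries of heart or white fat, the animals being C57BL/6J males. The mice had been injected with AAV8-F11 or AAV8-GFP, had then received HFD with l-NAME over 7 weeks, and were 15 weeks old at tissue collection. AAV8 is an adeno-associated virus that mainly transduces hepatocytes, F11 is the gene of factor XI, a zymogen of the clotting cascade that the liver secretes, and GFP is a fluorescent protein that serves as the vector control. HFD is a high-fat diet and l-NAME blocks nitric oxide synthase, so every group, the GFP controls included, was on the combined diet, and no group on a standard diet or without a vector was analysed here. The groups were 7 hearts with F11, 6 hearts with GFP, 8 adipose samples with F11 and 8 adipose samples with GFP. The labels do not say that the libraries came from separate mice, and p-values therefore cover the spread among these libraries only, which may be technical.

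A set of membrane proteins senses unfolded protein in the ER lumen. IRE1 alpha, encoded by Ern1, is a kinase and endoribonuclease that cuts the Xbp1 mRNA so that it encodes the transcription factor XBP1s. ATF6 is carried to the Golgi, cleaved by the site-1 and site-2 proteases, and released as a transcription factor. PERK, encoded by Eif2ak3, phosphorylates the initiation factor eIF2 alpha, which lowers translation in general while raising that of ATF4, and ATF4 then drives Ddit3 (CHOP) and Trib3. Hspa5 (BiP), Hsp90b1 (GRP94), Dnajb9 (ERdj4) and Herpud1 (HERP) are the outputs that fold or remove ER proteins. In muscle the ER is the calcium-storing sarcoplasmic reticulum, whereas adipose tissue makes and exports secreted proteins such as adiponectin.

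Library totals were 28.1 to 33.02 (in units of 1e6 estimated counts) in F11 hearts and 25.8 to 30.6 in GFP hearts, against 16.8 to 26.3 in F11 adipose tissue and 15.9 to 22.5 in GFP adipose tissue. The labelled tissues carried their own markers: 10 cardiomyocyte markers summed to 60857 to 80484 counts per 1e6 (CPM) in hearts, and Adipoq was at most 3.47 CPM in every heart and 706 to 2224 CPM in adipose tissue. The F11 transcript was at most 0.0898 CPM in F11 hearts and 0.501 CPM in GFP hearts, and it was 0.388 to 12.0 CPM in F11 adipose tissue against 0 to 3.50 CPM in GFP adipose tissue. A pair of adipose libraries stood apart. The F11 library L142 held 2886 CPM of epididymal and vas deferens epithelial markers (3.6 to 30.4 CPM in the other 15 adipose libraries), led by Lcn5 at 951 CPM, and the GFP library L140 held 6348 CPM of cardiomyocyte markers (21.7 to 125 CPM in the others). Hepatocyte markers exceeded 1000 CPM in 4 further adipose libraries, L145 and L146 with F11 and L136 and L137 with GFP. Among GFP hearts, L2 held 265 CPM of hepatocyte markers (at most 17.8 CPM in the others). L8 held the atrial marker Myl7 at 0.547 CPM (113 to 444 CPM in the other GFP hearts). Values without L142 or L140 stand beside the results that these libraries moved most.

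The promoters of 3 members held the sequence elements through which ATF6 and XBP1 are known to act, and they are shown because these members were the most abundant ones in heart. The ER stress response element (ERSE) was searched on both strands as CCAAT, any 9 bases and CCACG, and the shorter ERSE-II as ATTGG, any 1 base and CCACG, in windows of 250 bases before to 50 bases after the start in RefSeq (GRCm38.p6), which held entries for 9 members. Capitals mark the match.
Hspa5 promoter, chr2:34771840-34772139, plus strand: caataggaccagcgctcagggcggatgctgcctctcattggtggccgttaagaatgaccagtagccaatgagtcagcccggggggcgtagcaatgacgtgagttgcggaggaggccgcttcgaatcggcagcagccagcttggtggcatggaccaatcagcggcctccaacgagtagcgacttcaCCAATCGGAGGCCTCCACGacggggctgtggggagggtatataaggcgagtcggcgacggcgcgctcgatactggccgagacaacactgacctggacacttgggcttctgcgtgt
Hsp90b1 promoter, chr10:86705395-86705694, minus strand: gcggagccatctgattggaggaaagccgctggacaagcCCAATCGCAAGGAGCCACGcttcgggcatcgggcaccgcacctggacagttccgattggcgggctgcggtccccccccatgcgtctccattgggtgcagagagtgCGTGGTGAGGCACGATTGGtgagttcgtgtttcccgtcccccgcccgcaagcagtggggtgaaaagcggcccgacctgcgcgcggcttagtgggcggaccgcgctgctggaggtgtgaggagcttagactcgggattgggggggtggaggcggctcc
Herpud1 promoter, chr8:94386179-94386478, plus strand: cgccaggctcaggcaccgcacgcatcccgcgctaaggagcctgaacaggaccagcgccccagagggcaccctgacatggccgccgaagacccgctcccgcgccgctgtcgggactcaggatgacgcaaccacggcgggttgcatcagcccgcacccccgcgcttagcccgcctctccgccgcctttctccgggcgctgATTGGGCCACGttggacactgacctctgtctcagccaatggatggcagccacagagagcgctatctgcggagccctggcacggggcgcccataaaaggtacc
The ERSE lay 65 to 47 bases before the start of Hspa5. In Hsp90b1 it occurred at 212 to 194 bases and, on the opposite strand, at 107 to 89 bases before the start. The ERSE was present in 39 of 32851 promoter windows of this length (0.119%). ERSE-II lay 52 to 42 bases before the start of Herpud1 and was present in 12 windows (0.0365%). A match is a description of these letters, not a measured binding site. The C/EBP-ATF composite searched as TGATGNAAT was in none of the 9 members' windows and in 0.965% of all windows. Atf6 was not among the entries.

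Xbp1 is shown by the stretch that IRE1 removes, since a gene-level count cannot tell the cut mRNA from the uncut one. In the GENCODE M21 transcripts of GRCm38, 3 of 4 Xbp1 transcripts (chromosome 11) carried the 26 bases in capitals, here with 20 bases on each side.
Xbp1-201, bases 815 to 840 in capitals: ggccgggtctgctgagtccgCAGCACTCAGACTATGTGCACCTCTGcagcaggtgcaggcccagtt
Estimated counts of Xbp1 include transcripts with and without this stretch, so no value below measures IRE1 activity.

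Levels between members were compared as CPM per kilobase (kb) of the longest coding transcript. In F11 hearts the highest were Herpud1 at 141.6 ± 33.3 (SD, n = 7), Hspa5 at 124 ± 5.58 and Hsp90b1 at 118 ± 2.95 CPM per kb, which lie within the spread of Herpud1. GFP hearts had Hspa5 at 118 ± 7.89 (SD, n = 6), Hsp90b1 at 114 ± 6.84 and Herpud1 at 97.1 ± 13.4 CPM per kb. Their mean ± SD intervals overlapped, although on this scale the lowest Hspa5 library lay just above the highest Herpud1 library. A middle tier in F11 hearts ran from Atf4 at 34.5 ± 4.81 over Atf6 at 27.6 ± 2.38, Xbp1 at 23.1 ± 2.31 and Dnajb9 at 22.5 ± 1.22 to Ddit3 at 16.8 ± 1.56 CPM per kb, with Xbp1 and Dnajb9 indistinguishable. Ern1 at 4.15 ± 0.523 and Trib3 at 2.03 ± 0.352 CPM per kb were the lowest.

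In adipose tissue the order was different. With F11, Hsp90b1 led at 157 ± 42.2 CPM per kb (SD, n = 8), followed by Hspa5 at 115 ± 33.3, Xbp1 at 51.6 ± 7.23, Atf4 at 40.8 ± 5.45, Herpud1 at 21.1 ± 3.76, Dnajb9 at 20.2 ± 4.91, Ddit3 at 14.2 ± 2.14, Atf6 at 8.42 ± 1.38, Ern1 at 4.17 ± 2.05 and Trib3 at 2.59 ± 0.403. With GFP the same genes led, Hsp90b1 at 157 ± 15.8, Hspa5 at 127 ± 24.3, Xbp1 at 57.0 ± 10.5 and Atf4 at 41.5 ± 4.77 CPM per kb (SD, n = 8), and Dnajb9 (23.0 ± 4.33) and Herpud1 (20.7 ± 4.87) did not differ beyond their spread. Herpud1 was thus among the most abundant members in heart and a middle-tier one in adipose tissue, while Ern1 and Trib3 were lowest in all 4 groups.

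**Figure D1:**
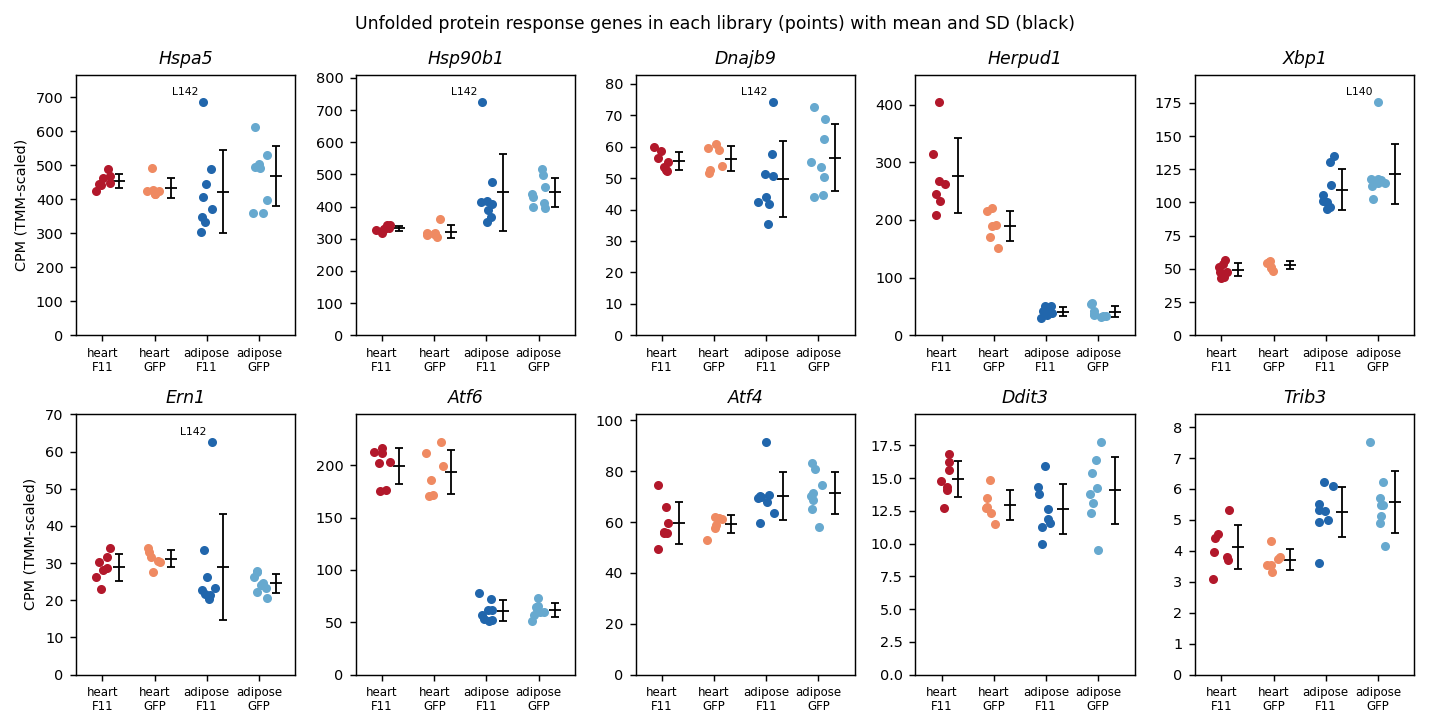
CPM of each member (vertical axis, linear from 0) in each of the 29 libraries, by tissue and vector; points are libraries, and the black bar and whiskers give the mean and SD. Herpud1 and Atf6 stand higher in heart and Xbp1 in adipose tissue, F11 and GFP points overlap for each member within a tissue, and the adipose libraries L142 (Hspa5 684, Hsp90b1 724, Ern1 62.6 CPM) and L140 (Xbp1 175 CPM) lie above the rest of their groups.

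The comparison of F11 with GFP hearts asks whether the vector changed these genes in the myocardium. No member passed the threshold of an adjusted p under 0.05 in edgeR's quasi-likelihood test (0 of 10), where 128 of 14684 genes did (0.872%), 76 of them higher (0.518%) and 52 lower (0.354%). An unadjusted p under 0.05 was reached by 2 members, Herpud1 and Ddit3, both with higher means with F11, beside 1831 of all genes tested (12.5%). DESeq2 called 1 member, Herpud1, and limma voom 0. The fold change was positive for 7 of 10 members with a median log2 of 0.04, beside 47.5% positive and a median of -0.01 over all genes tested.

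Herpud1, a scaffold of the HRD1 ubiquitin ligase complex that draws misfolded proteins out of the ER, had the largest difference among members (ENSMUSG00000031770, chr8:94386438-94395377, plus strand, GRCm38). Its CPM was 209 at the lowest, 263 at the median and 404 at the highest in F11 hearts, against 151, 190 and 220 in GFP hearts. The groups overlapped: the lowest F11 library, L31, lay below the highest GFP libraries, L5 and L8 (215 and 220 CPM), and the other 6 F11 hearts lay above all GFP hearts. The log2 fold change was 0.54 (SE 0.14, 1.45-fold), with an edgeR p of 0.00248 and an adjusted p of 0.107 over all genes. The call depended on the tool, with an adjusted p of 0.0276 in DESeq2 and 0.0592 in limma voom, and across fits that left out 1 heart library the log2 fold change was 0.43 to 0.60 with an edgeR adjusted p of 0.0682 to 0.210.

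Of the PERK arm, Ddit3, the transcription factor CHOP (chr10:127290774-127296288, plus strand), had 12.7, 14.8 and 16.8 CPM (lowest, median, highest) in F11 hearts, against 11.5, 12.8 and 14.8 CPM in GFP hearts. The ranges overlapped, with a log2 fold change of 0.21 (SE 0.07) and an edgeR adjusted p of 0.192. Atf4, its activator, averaged 59.6 ± 8.30 CPM (SD, n = 7) in F11 hearts and 59.1 ± 3.48 CPM (SD, n = 6) in GFP hearts, a log2 fold change of 0.01 (SE 0.08). Trib3, a pseudokinase induced by ATF4 and CHOP, was scarce at 3.10 to 5.32 CPM with F11 against 3.31 to 4.33 CPM with GFP (log2 fold change 0.15, SE 0.12).

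The chaperones and the IRE1 and ATF6 arms differed less. Hspa5, the ER member of the HSP70 family, averaged 454 ± 20.5 CPM in F11 hearts (SD, n = 7) and 433 ± 29.0 CPM in GFP hearts (SD, n = 6), with a log2 fold change of 0.07 (SE 0.04). Hsp90b1, the ER member of the HSP90 family, gave 0.04 (SE 0.04), and Dnajb9, a co-chaperone of BiP that holds IRE1 inactive, gave -0.02 (SE 0.05). Xbp1 had a log2 fold change of -0.10 (SE 0.06), Ern1 of -0.11 (SE 0.08) and Atf6 of 0.04 (SE 0.07), each with an edgeR adjusted p of 0.544 or more. In each of these genes the F11 and GFP ranges overlapped.

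Other transcripts moved with the vector in heart. Of 15 clock genes, 7 were called higher and 3 lower, among them Dbp at 119 ± 15.6 CPM with F11 (SD, n = 7) against 61.7 ± 9.71 CPM with GFP (SD, n = 6), and Arntl at 5.05 ± 1.37 against 16.2 ± 2.30 CPM. The summed clock list ran from 916 to 1112 CPM in F11 hearts and from 722 to 860 CPM in GFP hearts, and none of its genes was at 0 throughout. Summed cardiomyocyte markers were 70463 to 80484 CPM with F11 and 60857 to 66568 CPM with GFP, with 1 of 10 markers called. Much of that sum was Myh6, at 38328 to 44441 CPM with F11 and 32000 to 36451 CPM with GFP. The median log2 fold change of the 10 markers was 0.09. The part of the clock genes and of these markers in the Herpud1 and Ddit3 values was not tested. In bulk tissue, fewer cells of a type and less RNA per cell cannot be told apart.

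**Figure D2:**
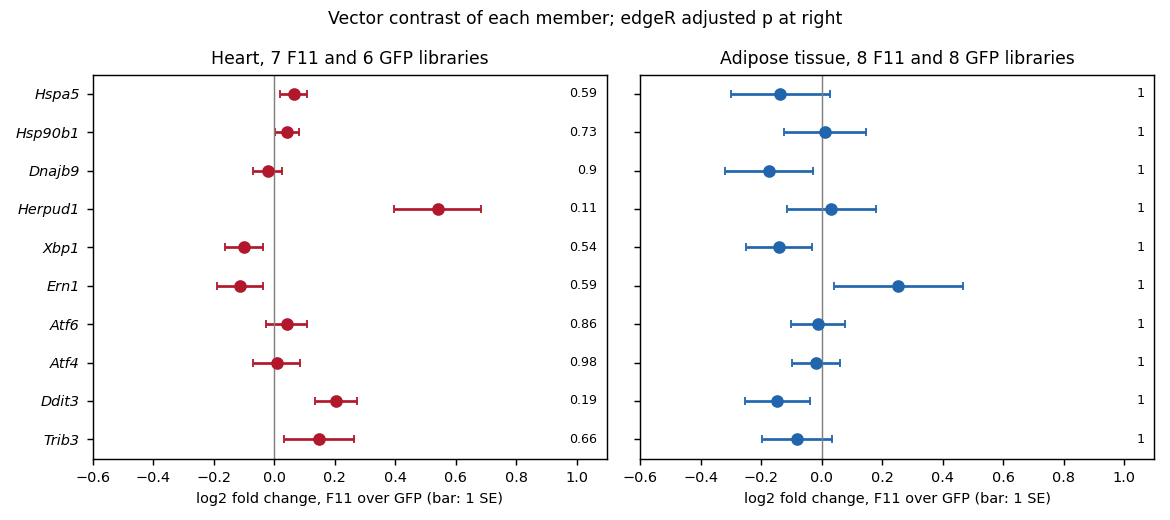
Log2 fold change of F11 over GFP for each member (points) with 1 SE (bars), heart on the left and adipose tissue on the right, with the edgeR adjusted p at the right edge. Herpud1 in heart has the largest value (0.54) and none of the 10 members passes in either tissue.

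The wider pathway was read from 7 lists of 151 genes, and edgeR called 0 of their tested genes between F11 and GFP hearts. At an unadjusted p under 0.05 there were 8 of 29 tested ATF4 and CHOP targets, 3 of 15 translation-arm genes and 2 of 10 cell death genes. There were also 2 of 13 sensors, 1 of 28 chaperones and 0 in the other lists. Beside 12.5% of all genes tested, the first 3 shares were above, that of sensors was near and that of chaperones under. The lists were not tested as sets. Nearest to the threshold was Wfs1, an ER calcium-handling glycoprotein that restrains ATF6, with a log2 fold change of 0.16 (SE 0.04, edgeR adjusted p 0.0799). Among 29 tested ATF4 and CHOP targets the fold change was positive in 21, and the median log2 was 0.07. The lowest p in that list belonged to Stc2, a secreted glycoprotein hormone (0.26, SE 0.08, adjusted p 0.144), and Aars, the alanyl-tRNA synthetase (0.14, SE 0.04, adjusted p 0.154). The 28 chaperones and folding enzymes had a median log2 of -0.03 with 11 positive, and Calr, the lectin chaperone calreticulin, gave 0.11 (SE 0.04, adjusted p 0.284). Dnajc3, an ER co-chaperone and inhibitor of eIF2 alpha kinases, gave -0.12 (SE 0.04, adjusted p 0.169). Creb3l1, an ATF6-like membrane factor, gave -0.33 (SE 0.11, adjusted p 0.204), and Bcl2l11, the pro-apoptotic BIM, -0.25 (SE 0.09, adjusted p 0.254). The lists for ER-associated degradation, translocation and export, and the translation arm had medians of 0.00, 0.00 and 0.02.

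In adipose tissue the same vector contrast gave no called member (0 of 10) and no called gene by edgeR (0 of 15229, 0%). At an unadjusted p under 0.05 there were 638 genes (4.19%) and 0 members, DESeq2 called 6 genes and 0 members, and limma voom 0 genes. The fold change was positive for 3 of 10 members with a median log2 of -0.05, beside -0.00071 over all genes. The spread between libraries was wider than in heart: the coefficient of variation of Hspa5 with F11 was 4.52% in heart and 28.9% in adipose tissue.

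Hspa5 ran from 302 over a median of 389 to 684 CPM in F11 adipose tissue, against 358, 493.2 and 611 CPM in GFP adipose tissue. The GFP range lay within the F11 range, and the log2 fold change of -0.14 (SE 0.16) had an edgeR adjusted p of 0.9996. Without L142, its highest library, it was -0.29, and the range over fits that left out 1 library was -0.29 to -0.078. Dnajb9 gave -0.17 (SE 0.15), and -0.29 without L142. Xbp1 gave -0.14 (SE 0.11), and -0.043 without L140. The others were Ddit3 at -0.15 (SE 0.11), Trib3 at -0.08 (SE 0.12), Atf4 at -0.02 (SE 0.08), Atf6 at -0.01 (SE 0.09) and Herpud1 at 0.03 (SE 0.15). Herpud1 averaged 41.1 ± 7.34 CPM with F11 and 40.4 ± 9.51 CPM with GFP (SD, n = 8 each).

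Without library L142 the values of Ern1 and Hsp90b1 changed sign. That of Hsp90b1 was near 0 and also changed sign without L140 (-0.012) and in a fit over the libraries of both tissues (-0.00075). In F11 adipose tissue Ern1 was 62.6 CPM in L142 and 20.2 to 33.5 CPM in the other 7 libraries, against 20.6 to 27.9 CPM in GFP adipose tissue. Hsp90b1 was 724 CPM in L142 and at most 477 CPM in the other F11 libraries, against 397 to 516 CPM with GFP. The log2 fold changes were 0.25 (SE 0.21) for Ern1 and 0.01 (SE 0.14) for Hsp90b1, and they were -0.03 and -0.14 without L142. The same library held Slc7a5, a large neutral amino acid transporter subunit, at 250 CPM where the other F11 libraries had at most 10.8 CPM, and the ER disulfide reductase Dnajc10 at 318 CPM where they had at most 68.6 CPM. Its epididymal marker sum is given above, and its part in these values was not tested.

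Of the pathway genes 0 were called by edgeR in adipose tissue. At an unadjusted p under 0.05 there were 4 of 31 ATF4 and CHOP targets, 1 of 15 translation-arm genes and 0 in the other lists. Over all genes the share was 4.19%, and those of the targets and of the translation arm were above it. The lists were not tested as sets. The lowest p among the listed genes belonged to Nupr1, a stress-induced transcriptional regulator, with a log2 fold change of -0.22 (SE 0.06, edgeR adjusted p 0.939). Eif2b1, a subunit of the eIF2B exchange factor, followed with -0.12 (SE 0.04, adjusted p 0.9996). Of the 26 translocation and export genes 7 were positive with a median log2 of -0.02, and of 28 chaperones 15 were positive with a median of 0.01.

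Whether the vector acted differently in the tissues was tested as an interaction, the F11 effect in heart minus that in adipose tissue, in 1 fit over all libraries. No member was called by edgeR (0 of 10), where 4 of 16526 genes were (0.0242%), 2 positive (0.0121%) and 2 negative (0.0121%). At an unadjusted p under 0.05 there were 2 members, beside 1228 of all genes tested (7.43%), and DESeq2 and limma voom also called 0 members. The differences were 0.52 for Herpud1 (SE 0.21, adjusted p 0.519) and 0.36 for Ddit3 (SE 0.15, adjusted p 0.534) on the log2 scale. Among listed pathway genes the lowest p was that of Cebpb, a C/EBP factor that pairs with CHOP and ATF4, with 0.60 (SE 0.20, adjusted p 0.405).

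Heart against adipose tissue gave the large differences. With GFP, 6 of 10 members were called, 2 higher and 4 lower in heart, where 80.2% of 16526 genes were called, 36.8% higher and 43.4% lower. With F11, 7 of 10 were called, 3 higher and 4 lower, beside 81.6% of all genes, 36.6% higher and 45% lower. The members' shares were under these backgrounds. All-gene medians were -0.13 with F11 and -0.11 with GFP on the log2 scale.

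Herpud1 was 209 to 404 CPM in F11 hearts and 29.7 to 51.4 CPM in F11 adipose tissue, and 151 to 220 CPM in GFP hearts against 31.5 to 55.4 CPM in GFP adipose tissue. Every heart library lay above every adipose library, and the log2 fold change was 2.77 (SE 0.15, edgeR adjusted p 7.0e-16) with F11 and 2.25 (SE 0.15, adjusted p 1.1e-13) with GFP. Atf6, the sensor that is itself a latent transcription factor (chr1:170704674-170867771, minus strand), was 175 to 216 CPM in F11 hearts against 50.9 to 78.5 CPM in F11 adipose tissue. With GFP it was 171 to 223 CPM in hearts against 51.7 to 72.8 CPM in adipose tissue. These ranges were apart too, with log2 fold changes of 1.73 (SE 0.09) with F11 and 1.67 (SE 0.09) with GFP.

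Xbp1 (chr11:5520659-5525893, plus strand) went the other way at 43.1 to 56.3 CPM in F11 hearts against 95.0 to 135.2 CPM in F11 adipose tissue, and 48.4 to 55.8 CPM in GFP hearts against 102 to 175 CPM in GFP adipose tissue. Its log2 fold change was -1.14 (SE 0.10) with F11 and -1.19 (SE 0.10) with GFP. Hsp90b1 was lower in heart by a smaller step (-0.40, SE 0.10 with F11 and -0.44, SE 0.11 with GFP), and in both vectors its heart and adipose ranges did not overlap. Without L142 its value with F11 was -0.26, still called (adjusted p 0.000488). Trib3 (-0.33, SE 0.12 with F11 and -0.57, SE 0.13 with GFP) and Atf4 (-0.22, SE 0.08 with F11 and -0.26, SE 0.09 with GFP) were called lower in heart. The Atf4 call with F11 was lost without the F11 heart library L38 (adjusted p 0.0587), without the F11 adipose library L148 (0.0620) and in a fit of the F11 groups alone (0.0827).

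Ddit3 was called higher in heart with F11 (0.26, SE 0.10, edgeR adjusted p 0.0205) and not with GFP (-0.10, SE 0.11, adjusted p 0.382). That change of call between vectors is the interaction reported above, which did not pass. Without L142 the F11 value was 0.22 with an adjusted p of 0.05002, just outside the threshold. Hspa5 (0.13, SE 0.13 with F11 and -0.09, SE 0.14 with GFP), Dnajb9 (0.18, SE 0.12 and 0.01, SE 0.12) and Ern1 (0.01, SE 0.17 and 0.36, SE 0.18) did not pass under either vector. Leaving out L140 and L142 brought all of these 3 past the threshold with F11, at log2 fold changes of 0.30, 0.32 and 0.32, and Ern1 with GFP at 0.39, so that 10 members were called with F11 and 7 with GFP. In those fits 82.2% of 16625 genes were called with F11 and 81.2% with GFP, so that without these libraries the members' share with F11 was above the background and not under it. With all libraries kept, limma voom also called these 3 with F11. The log2 fold changes were 0.24 for Hspa5 (adjusted p 0.00986), 0.30 for Dnajb9 (0.00280) and 0.31 for Ern1 (0.00667). Ern1 was also called with GFP in DESeq2 (adjusted p 0.0444) and in limma voom (0.00148).

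**Figure D3:**
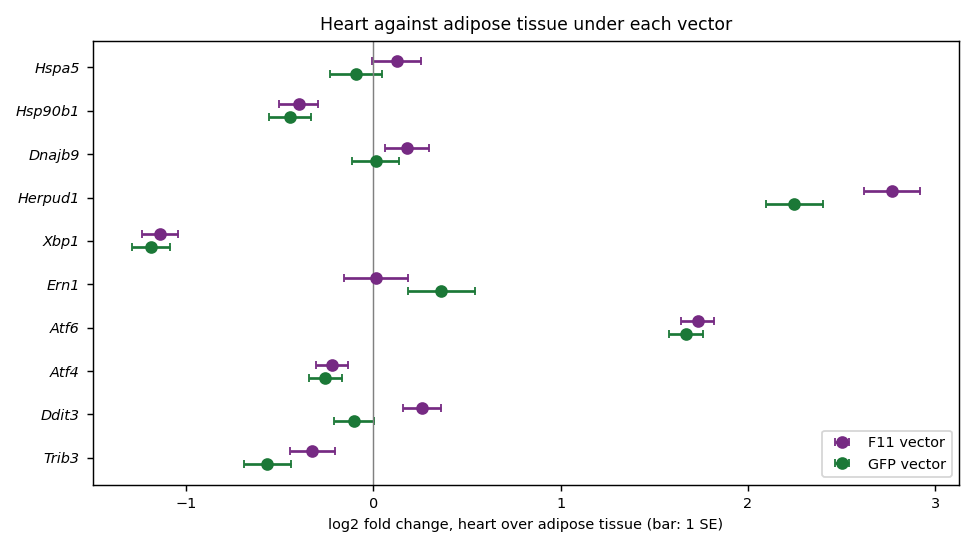
Log2 fold change of heart over adipose tissue for each member (points) with 1 SE (bars), in F11 libraries and in GFP libraries. Herpud1 (2.77 with F11, 2.25 with GFP) and Atf6 (1.73 and 1.67) lie far right of 0, Xbp1 (-1.14 and -1.19) far left.

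In the 7 pathway lists more genes were called lower than higher in heart under both vectors, as was the case over all genes (36.6% higher and 45% lower with F11, 36.8% and 43.4% with GFP). The genes named here are extremes among those with a mean of at least 5 CPM in 1 of the groups. Of 28 chaperones and folding enzymes, 3 were higher and 23 lower with F11 (median log2 -0.73), and 3 were higher and 21 lower with GFP (-0.68). The lowest were Sdf2l1, an ER-resident partner of BiP (-1.85 with F11 and -1.75 with GFP), and the oxidoreductase Ero1lb (-1.81 and -1.75). Selenom, a selenoprotein of the ER, was higher (0.91 and 1.04), as was the lectin chaperone Canx (0.39 and 0.35). Of 24 degradation genes, 7 were higher and 16 lower with F11, and 7 and 15 with GFP. Edem1, which acts in the disposal of misfolded glycoproteins, was the lowest of these at that level, at -3.09 with F11 and -3.06 with GFP, opposite to Herpud1 of the same process. Edem2 gave -1.95 and -1.85, and Ube2g2, a ubiquitin-conjugating enzyme, 0.63 and 0.45.

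Among 26 translocation and export genes, 4 were higher and 19 lower with F11, and 3 and 20 with GFP, with the translocon-associated Serp1 at -2.47 and -2.42 and the translocon subunit Sec61g at -2.16 and -1.99. Of 31 ATF4 and CHOP targets, 7 were higher and 17 lower with F11, and 7 and 18 with GFP. The extremes were the serine synthesis enzymes Phgdh (-7.37 with F11 and -7.02 with GFP) and Psat1 (-4.85 and -5.12), against the mitochondrial folate enzyme Aldh1l2 (3.91 and 4.01) and Cebpb (3.12 and 2.51). The sensor list had 4 higher and 10 lower of 15 tested with F11, and 2 and 9 with GFP. In it Wfs1 (1.497 and 1.26) and the kinase Map3k5 (0.98 and 0.96) were higher, and Creb3l1 (-1.51 and -1.37) and Creb3 (-1.07 and -1.19) lower. The translation arm had 4 higher and 9 lower of 15 with F11, and 4 and 10 with GFP, with the eIF2 phosphatase subunits divided: Ppp1r15a, the inducible GADD34, was higher (1.23 and 1.33) and Ppp1r15b, the constitutive CReP, lower (-1.06 and -1.07). Of 11 cell death genes, 1 was higher and 9 lower with F11, and 2 and 8 with GFP, led by the ER-linked caspase gene Casp12 (-1.69 and -1.90) and Bok, of the BCL2 family (-1.61 and -1.61). These tissue values carry the difference in mitochondrial transcripts, 31.6 to 34.6% of counts in hearts against 3.9 to 11.1% in adipose tissue. Without the mitochondrial genes the 7 and 6 called members stayed called, and Ern1 was added with GFP (adjusted p 0.0432).

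How the members varied together was read from log2(CPM + 1) with each group's mean subtracted, over 13 heart and 16 adipose libraries, for 90 pairs in all, with two-sided permutation tests adjusted by Benjamini-Hochberg over the 90. All values of a library share its total. The share of passing pairs among other genes was not computed, so the counts below do not set the members apart. Values without the 2 farthest libraries leave out those farthest from the median of the pair's first gene. That is the earlier gene in the order Hspa5, Xbp1, Ern1, Atf4, Atf6, Ddit3, Hsp90b1, Dnajb9, Herpud1, Trib3. The libraries left out can thus differ between pairs. In heart 3 of 45 pairs passed by Pearson's r and 2 by Spearman's rho. Atf6 and Dnajb9 varied together (r = 0.82, permutation p = 0.00433, adjusted 0.0266; rho = 0.80, permutation p = 0.00381, adjusted 0.0244), and r was 0.89 without the 2 libraries farthest from the median. Hsp90b1 and Herpud1 ran opposite (r = -0.66, permutation p = 0.00167, adjusted 0.0167; rho = -0.73, permutation p = 0.00656, adjusted 0.0340). Without the farthest 2 libraries r was -0.75 (permutation p = 0.0244, adjusted 0.105), and the pair no longer passed. Hspa5 and Ern1 also ran opposite (r = -0.71, permutation p = 0.00443, adjusted 0.0266; rho = -0.67, permutation p = 0.0171, adjusted 0.0590), but r was -0.45 with a permutation p of 0.291 without the 2 farthest, so this relation rests on those libraries.

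In adipose tissue 15 of 45 pairs passed by Pearson's r, 11 positive and 4 negative, and 23 by Spearman's rho. The chaperones formed the closest group. Hspa5 and Dnajb9 had r = 0.94 (permutation p = 1e-05, the smallest the permutations can give, adjusted 0.00045) and rho = 0.89 (permutation p = 4e-05, adjusted 0.0012), with r = 0.88 without the 2 farthest. Hspa5 and Hsp90b1 had r = 0.89 (permutation p = 1e-05, adjusted 0.00045) and rho = 0.87 (permutation p = 4e-05, adjusted 0.0012), with 0.82 without the 2 farthest. Hsp90b1 and Dnajb9 had r = 0.79 (permutation p = 0.00059, adjusted 0.0106) and rho = 0.78 (permutation p = 0.00068, adjusted 0.01155). Without the 2 farthest their r was 0.63 (permutation p = 0.0218, adjusted 0.102), and that pair no longer passed. Ern1 and Hsp90b1 had r = 0.88 (permutation p = 0.00339, adjusted 0.0254) and rho = 0.67 (permutation p = 0.00739, adjusted 0.0350), but r was 0.29 (permutation p = 0.340) without the 2 farthest, and the relation rests on those libraries. Ern1 also passed with Hspa5 (r = 0.79, permutation adjusted p 0.0112) and Dnajb9 (r = 0.77, adjusted p 0.0081). Neither pair passed without the 2 farthest (r = 0.65 and 0.59, adjusted p 0.0556 and 0.146). The PERK-arm genes Atf4 and Ddit3 had r = 0.77 (permutation p = 0.00081, adjusted 0.0112) and rho = 0.76 (permutation p = 0.00160, adjusted 0.0180), with 0.53 (permutation p = 0.0628) without the 2 farthest. Atf6 varied with Dnajb9 in adipose tissue too (r = 0.695, permutation p = 0.00436, adjusted 0.0266, and rho = 0.81), with 0.80 without the 2 farthest. Atf6 also passed with Atf4 (r = 0.78, permutation adjusted p 0.0072, and rho = 0.86) and with Hspa5 (r = 0.66, permutation adjusted p 0.0492, and rho = 0.77). For both pairs r was 0.79 without the 2 farthest.

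Herpud1 ran opposite to Atf4 and Ddit3 of the PERK arm in adipose tissue, but had no passing relation with Trib3 (r = -0.19, permutation adjusted p 0.681). With Atf4 it had r = -0.75 (permutation p = 0.00122, adjusted 0.0137) and rho = -0.73 (permutation p = 0.00307, adjusted 0.0244), and with Ddit3 r = -0.73 (permutation p = 0.00245, adjusted 0.0220) and rho = -0.71 (permutation p = 0.00386, adjusted 0.0244). Without the 2 farthest libraries r was -0.53 (permutation p = 0.0724) with Atf4 and -0.62 (permutation p = 0.0209) with Ddit3. Without L140 and L142 the Ddit3 pair no longer passed (r = -0.55, adjusted p 0.131). Atf6, outside the PERK arm, also ran opposite to Herpud1 (r = -0.69, permutation p = 0.00309, adjusted 0.0253, and rho = -0.69). For that pair r was -0.55 (permutation p = 0.062) without the 2 farthest libraries and -0.84 without L140 and L142. Xbp1 and Herpud1 varied in the same direction (r = 0.63, permutation p = 0.00982, adjusted 0.0492; rho = 0.65, permutation p = 0.00679, adjusted 0.0340), but r was 0.50 (permutation p = 0.0797) without the 2 farthest libraries and 0.60 with an adjusted p of 0.0501 without L140 and L142. Xbp1 ran opposite to Hspa5 (r = -0.62, permutation p = 0.00862, adjusted 0.0485, and rho = -0.71, permutation p = 0.00406, adjusted 0.0244). For that pair r was -0.64 without the 2 farthest libraries (permutation p = 0.0106, adjusted 0.0595, no longer passing). It was also -0.64 without L140 and L142 (permutation p = 0.0118). Trib3 was in none of the pairs that passed in either tissue. Without L140 and L142, 24 adipose pairs passed.

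**Figure D4:**
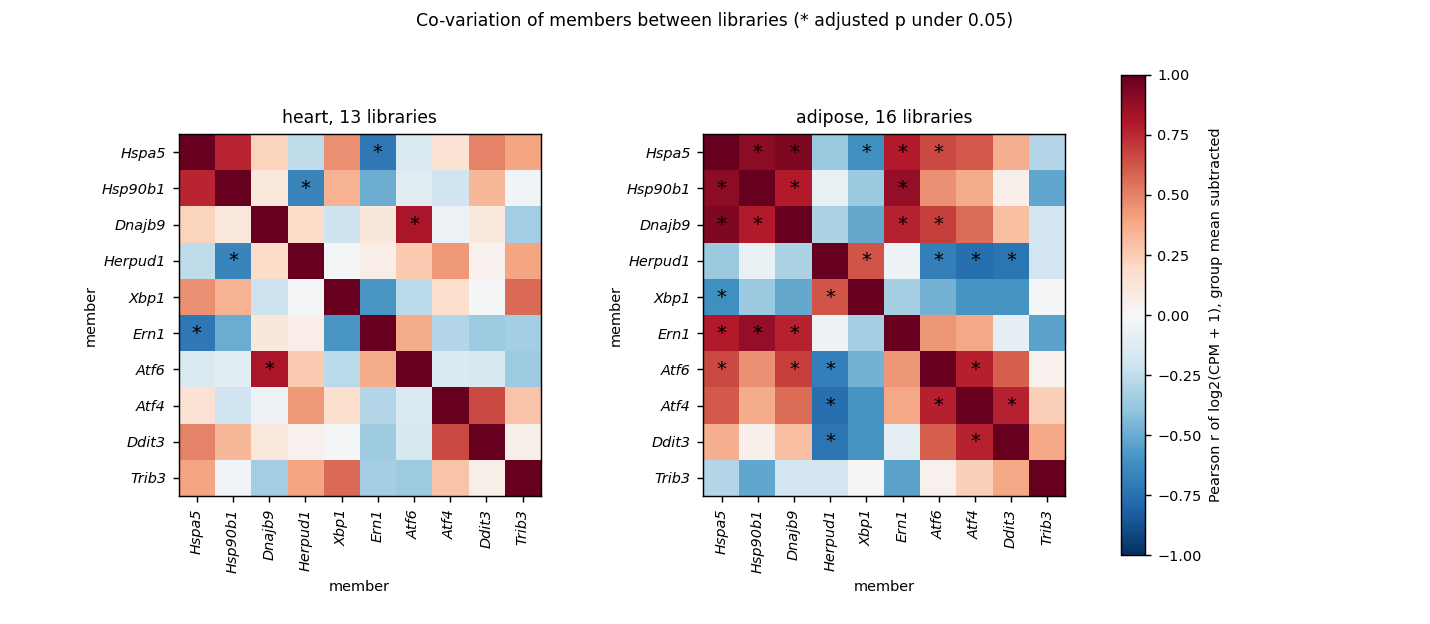
Pearson r between each pair of members across libraries (log2(CPM + 1), group means subtracted) in heart on the left and adipose tissue on the right, from -1 (blue) to 1 (red), with an asterisk where the adjusted p is under 0.05. Adipose tissue shows a positive block of the chaperones with Ern1. The Ern1 pairs with them, and the pair Hsp90b1 and Dnajb9, did not pass without the 2 libraries farthest from the median of the pair's first gene. Herpud1 has marked negative pairs with Atf4, Atf6 and Ddit3 and a marked positive pair with Xbp1 (r = 0.63). Hspa5 has a marked negative pair with Xbp1 (r = -0.62), and Atf6 has marked positive pairs with Hspa5, Dnajb9 and Atf4. Heart has 3 marked pairs.

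Several members varied with summed cell markers in adipose tissue. Summed macrophage markers (10 genes) ran from 924 to 5729 CPM in F11 and from 679 to 4901 CPM in GFP adipose tissue, and 10 white adipocyte markers from 12549 to 24706 and from 15580 to 24285 CPM. These 20 relations were examined after the values were seen, and 5 passed with macrophage markers by Pearson's r (3 positive, 2 negative) and 9 with adipocyte markers (2 positive, 7 negative). How many of all genes would pass in the same way was not computed, so these counts do not set the members apart from other genes. Here the 2 farthest libraries are those farthest from the median of the marker sum, group means subtracted. The macrophage count depended on L140 and L142: without them 8 passed with macrophage markers (7 positive, 1 negative) and 8 with adipocyte markers (1 positive, 7 negative). With macrophage markers r was then 0.82 for Ern1 (0.07 with all libraries), 0.76 for Dnajb9 (0.36), 0.67 for Hsp90b1 (0.09) and -0.61 for Xbp1, which no longer passed (adjusted p 0.0671). With macrophage markers, Herpud1 had r = -0.90 (permutation p = 3e-05, adjusted 0.00030) and rho = -0.84 (permutation p = 0.00011, adjusted 0.00044), with -0.82 without the 2 farthest libraries. Atf4 had r = 0.89 (permutation p = 1e-05, adjusted 0.00020) and rho = 0.88 (permutation p = 4e-05, adjusted 0.00040), with 0.76 without the 2 farthest. Ddit3 had r = 0.83 (permutation p = 0.00021, adjusted 0.00070) and rho = 0.85 (permutation p = 0.00020, adjusted 0.00067), with 0.66 without the 2 farthest.

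With adipocyte markers, Hspa5 had r = -0.86 (permutation p = 0.00020, adjusted 0.00070) and rho = -0.94 (permutation p = 1e-05, adjusted 0.00020), with -0.94 without the 2 farthest. Hspa5 with macrophage markers gave r = 0.40 (permutation p = 0.138, adjusted 0.184) and rho = 0.56 (permutation p = 0.0308, adjusted 0.0410), with 0.20 without the 2 farthest and 0.81 without L140 and L142. Xbp1 was lower where macrophage markers were higher (r = -0.66, permutation p = 0.00939, adjusted 0.0188; rho = -0.59, permutation p = 0.0236, adjusted 0.0363), but r was -0.43 (permutation p = 0.196) without the 2 farthest and so rests on them. What these markers contribute to the pairs of members was not tested.

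**Figure D5:**
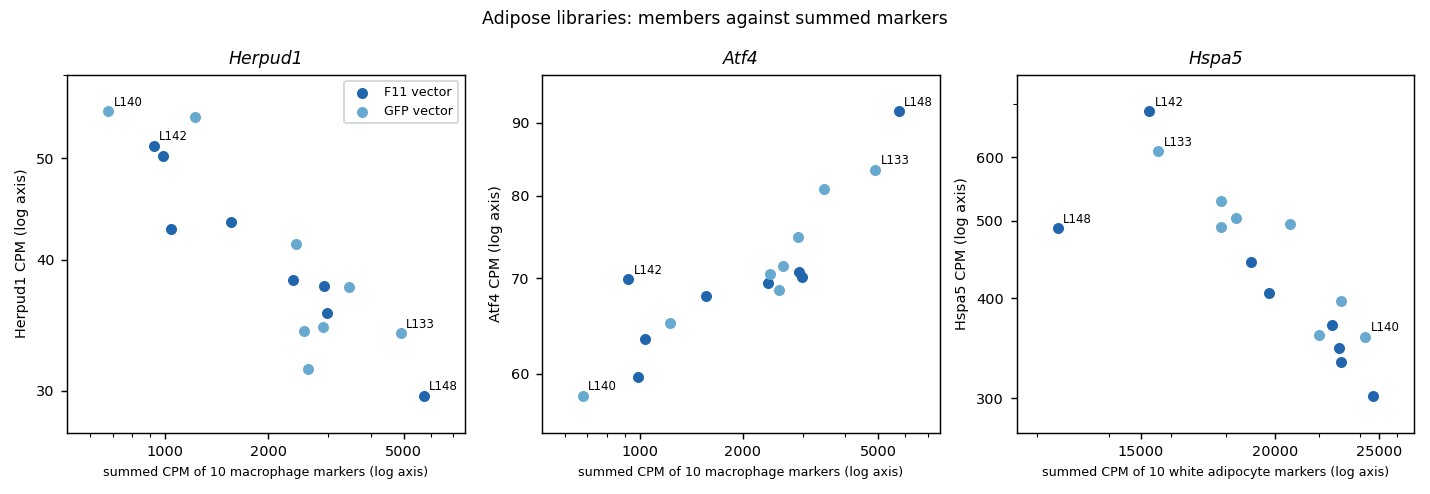
CPM of Herpud1, Atf4 and Hspa5 (log axes) against the summed CPM of 10 macrophage or 10 white adipocyte markers (log axes) in 16 adipose libraries, with F11 in dark and GFP in light blue. Herpud1 is lower and Atf4 higher where the macrophage sum is higher (r = -0.90 and 0.89), Hspa5 is lower where the adipocyte sum is higher (r = -0.86), and F11 and GFP libraries are interspersed.

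The genes most like Hspa5 and Trib3 were sought by Pearson's r of log2(CPM + 1) minus the group mean, among genes with a mean of at least 5 CPM, and are given as the top of a ranking with no test. In adipose tissue (16 libraries, 11252 genes) Hspa5 was closest to Calr (r = 0.99, rho = 0.98), the signal-sequence receptor subunit Ssr3 (0.98, 0.95), the translocon pore Sec61a1 (0.98, 0.96), Pknox1 (0.97, 0.94) and the mitochondrial folate enzyme Mthfd2 (0.97, 0.94). Without L140 and L142 these r values were 0.94 to 0.99. In heart (13 libraries, 10610 genes) it was closest to Calr again (r = 0.85, rho = 0.60), then Srek1ip1, Hspa8, Psme2 and Dnajc8 (r = 0.83 to 0.84). Calr thus headed both rankings. For Trib3 the closest were Gm42857 (r = 0.92, rho = 0.74), Ifnar2, 4930523C07Rik, Ppt2 and 2810025M15Rik in heart, and D8Ertd738e (r = 0.90, rho = 0.89), Dnajc19, Psmd7, Tomm5 and Rab5if in adipose tissue, with no gene in common.

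Herpud1 was added to that search after its values were seen. In heart it was closest to Klf15 (r = 0.94, rho = 0.93), Foxo3 (0.92, 0.92), Uhrf2 (0.91, 0.91), Ankrd9 (0.91, 0.85) and Pik3r1 (0.91, 0.86). Klf15, a Krüppel-like factor of metabolic control, was 61.0, 69.1 and 93.4 CPM (lowest, median, highest) in F11 hearts, against 54.1, 58.3 and 63.2 CPM in GFP hearts. Library L33 was highest for both Klf15 and Herpud1 among F11 hearts, and L8 was highest and L9 lowest for both among GFP hearts. Pik3r1, a regulatory subunit of phosphoinositide 3-kinase, had a log2 fold change of 0.56 (SE 0.13, edgeR adjusted p 0.0614) and Klf15 of 0.28 (SE 0.08, adjusted p 0.107). In adipose tissue the closest were Ndufb11 (r = 0.94, rho = 0.95), Cbr1, Alad, Nadk2 and Wrnip1, none shared with heart.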

How the data were processed

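The authors made gene-level estimated counts with kallisto 0.46 on GRCm38.p6 (per the submitters' processing notes) from libraries of total RNA made with an mRNA kit, per the labels' protocols. Which annotation release, strand setting and transcript-to-gene step they used is not given in the sources used here. Kallisto shares reads between similar transcripts by estimation (30.8% of values were not whole), so overlapping and antisense genes cannot be told apart. Of 36558 IDs, 35856 received a symbol from GENCODE M21. A second Ddit3 ID was not used. The table held 29 of 30 labelled libraries, and L10, a GFP heart, was not analysed here. No pair of libraries was identical or within sampling noise.

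Counts were rounded and tested with edgeR 4.0.16 (R 4.3.3; filterByExpr, TMM, robust quasi-likelihood, two-sided), over all genes, calling genes at a Benjamini-Hochberg adjusted p under 0.05. Each vector contrast was fitted within its tissue, and tissue and interaction contrasts over all libraries. CPM is per 1e6 TMM-scaled counts. Totals limit the precision of scarce genes. Correlations used 100000 permutations of libraries within groups and a pseudocount of 1. Alternatives were DESeq2 1.42.0, limma 3.58.1 voom with quality weights, other size factors, other filters, fits over other library sets, no mitochondrial genes, a pseudocount of 0.1 and leaving out each library. The fits were tested on simulated data.

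The members and lists were chosen with earlier results of these data known. Named pathway genes were the called genes of each list with the lowest p (else the lowest 2, given as values), and, between tissues, the 2 largest changes in each direction at 5 CPM or more. Not every gene of that rule is named, and single markers of other tissues and clock genes were chosen after their values were seen. Fits without L140 and L142, without 6 adipose libraries or without the heart libraries L2 and L8, and the marker relations, were added after seeing the data.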

Additional observations from a re-analysis of the deposited data

Results flagged for a closer look

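In 180 groups of 6 to 8 libraries (45 genes, 10 of them members), 24 had a highest or lowest library far from the others by Dixon's test at 95%, and chance flags about 1 in 20 groups. Among members, Hspa5 (492 CPM, next 428) and Hsp90b1 (360 CPM, next 319) were high in the GFP heart L9. In F11 adipose tissue Ern1 (62.6 CPM, next 33.5) and Hsp90b1 (724 CPM, next 477) were high in L142, and Atf4 (91.6 CPM, next 70.7) in L148, which also had the highest macrophage sum. Xbp1 was high in the GFP adipose library L140 (175 CPM, next 118).

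Among pathway genes, 7 more flags fell on L142 (9 with the members): Slc7a5 (250 CPM), Dnajc10 (318 CPM), Dnajc3 (178 CPM), Rtcb (146.5 CPM), Mbtps1 (105 CPM) and Derl3 (16.2 CPM) were high and Eif2b1 (20.1 CPM) low. The F11 heart L40 was high for Calr (284 CPM), Bfar (62.2 CPM) and Cnpy3 (18.1 CPM) and low for Srp54a (133.6 CPM) and Itpr1 (58.7 CPM). Calr was also high in the GFP heart L9 (264 CPM). In GFP hearts Stc2 was high (18.7 CPM) and Ube2j1 low (31.7 CPM) in L5, and Srp54a low (127 CPM) in L1. In adipose tissue Wfs1 was high in the F11 library L148 (125 CPM) and Derl3 in the GFP library L136 (1.97 CPM).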

How the results depend on the processing

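No paired analysis was possible because the groups compared share no replicate numbers. The called genes between F11 and GFP hearts numbered 128, against 373 in DESeq2, 196 in limma voom and 30 in a fit over both tissues, and 87 to 179 when 1 library was left out. Called members there were 0, and 1 (Herpud1) in DESeq2. In adipose tissue 0 genes were called, against 6 in DESeq2, 4 in the fit over both tissues and 0 to 0 when 1 library was left out. For the interaction the 4 called genes became 2 without a filter, 166 in DESeq2, 24 in limma voom, 9 without L140 and L142, and 1 to 6 when 1 library was left out. Passing pairs became 1 in heart and 9 in adipose tissue without the 2 farthest libraries of each pair's first gene, against 3 and 15. They became 24 in adipose tissue without L140 and L142.

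Signs changed for members that were not called in the comparison concerned, and the cause was not tested except that some fits hold fewer libraries. Without a filter these were Dnajb9 between tissues with GFP (-0.0074) and Ern1 with F11 (-0.0061). In limma voom they were Atf4 in heart (-0.024), Ern1 (-0.028) and Hsp90b1 (-0.17) in adipose tissue and Xbp1 in the interaction (-0.038). Hsp90b1 was -0.00075 in adipose tissue in the fit over both tissues. Without L140 and L142, Ern1 (-0.045) and Hsp90b1 (-0.16) in adipose tissue and Xbp1 in the interaction (-0.074) changed sign, and without 6 adipose libraries Ern1 (-0.0066), Hsp90b1 (-0.19) and Trib3 (0.023) did. Atf6 in heart was -0.010 without L2 and L8. Leaving out 1 library moved the log2 value across 0 for Atf4 (-0.054 to 0.048) and Dnajb9 (-0.045 to 0.0029) in heart. In adipose tissue it did so for Ern1 (-0.030 to 0.32), Atf4 (-0.076 to 0.013), Atf6 (-0.067 to 0.022), Hsp90b1 (-0.14 to 0.053) and Herpud1 (-0.031 to 0.11). Between tissues it did so for Dnajb9 with GFP (-0.035 to 0.067) and Ern1 with F11 (-0.048 to 0.28), and in the interaction for Xbp1 (-0.064 to 0.099) and Atf4 (-0.027 to 0.10).

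Depth limits Trib3 most, at under 8 CPM in each library. Gene counts cannot show Xbp1 splicing, ATF6 cleavage or eIF2 alpha phosphorylation.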
